A study of Homo sapiens with 24 samples.

Results

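The genes described here are 10 cytokine and receptor genes of the IL-1 and IL-6 families and a colony-stimulating factor, followed through knockdown of FAM167A (DIORA1) in SK-N-SH and SK-N-AS, both human neuroblastoma lines. The set is IL1A, IL1B, IL1R1, IL6, IL11, LIF, LIFR, IL6ST, OSMR and CSF1. Members were matched by Ensembl identifier, and all 10 are among the 57356 identifiers that the 3 deposited count tables share. No value threshold enters the choice, but the set was drawn up with earlier results of these data known. The series holds 24 poly(A) RNA-seq libraries in 6 groups. In the first experiment, 5 SK-N-SH libraries received a pool of siRNAs against FAM167A and 5 received a non-targeting siRNA. In the second, CRISPR interference (CRISPRi, an SpCas9-KRAB repressor steered by a guide RNA) was applied to SK-N-SH, with 3 libraries carrying a guide to FAM167A (sgDIORA1) and 3 carrying the non-targeting guide sgGal4. The third used the same CRISPRi design in SK-N-AS, with 4 libraries of each kind. No label says that replicates are separate cultures or clones, so p-values measure the spread between these libraries, which may be technical.

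IL-1 alpha and IL-1 beta are pro-inflammatory cytokines that bind the receptor encoded by IL1R1 and switch on NF-kB and AP-1 transcription. IL-6, IL-11, LIF and oncostatin M share a signalling chain, gp130, which is encoded by IL6ST. It pairs with ligand-specific chains such as LIFR and OSMR and acts through JAK kinases and STAT3. In neuroblastoma, cytokine and NF-kB/AP-1 programmes are known as features of the mesenchymal state, as opposed to the adrenergic state of noradrenergic neurons.

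Library totals were 71464698 to 90255175 reads with siRNA, 11690515 to 21628076 reads in the SK-N-SH CRISPRi experiment and 29985858 to 104455853 reads in SK-N-AS. FAM167A itself stood at 65.2 ± 5.13 normalised CPM (read count scaled to the library total) in siRNA knockdown and 188 ± 12.5 CPM in its controls (SD, n = 5 each). It stood at 3.22 ± 0.588 CPM in SK-N-SH CRISPRi knockdown and 242 ± 12.7 CPM in controls (SD, n = 3 each). In SK-N-AS it stood at 10.2 ± 0.739 CPM in knockdown and 95.1 ± 3.56 CPM in controls (SD, n = 4 each). The residual level was therefore 34.7% of control with siRNA, 1.33% with CRISPRi in SK-N-SH and 10.7% with CRISPRi in SK-N-AS.

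The promoter windows of 5 members are shown as examples. They hold letters that resemble binding sites of the factors downstream of IL-1 and gp130, as do windows of IL1R1, LIFR and IL6ST, which are not shown. Each window runs from 250 bases before to 50 bases after a RefSeq start site of GRCh38.p14, on the gene's own strand, and capitals mark motif matches. The IL1A window is chr2:112784444-112784743 on the minus strand and holds a pair of AP-1 motifs (TGANTCA), and the letters TATAAA 239 bases before the start site.
IL1A: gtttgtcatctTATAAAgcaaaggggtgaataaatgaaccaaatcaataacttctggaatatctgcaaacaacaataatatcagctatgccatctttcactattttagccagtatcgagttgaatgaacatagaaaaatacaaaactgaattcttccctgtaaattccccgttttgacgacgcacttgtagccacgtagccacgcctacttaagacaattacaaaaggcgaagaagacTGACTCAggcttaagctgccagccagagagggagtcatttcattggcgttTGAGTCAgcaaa
The IL1B window is chr2:112836730-112837029 on the minus strand and holds a STAT motif (TTCNNNGAA).
IL1B: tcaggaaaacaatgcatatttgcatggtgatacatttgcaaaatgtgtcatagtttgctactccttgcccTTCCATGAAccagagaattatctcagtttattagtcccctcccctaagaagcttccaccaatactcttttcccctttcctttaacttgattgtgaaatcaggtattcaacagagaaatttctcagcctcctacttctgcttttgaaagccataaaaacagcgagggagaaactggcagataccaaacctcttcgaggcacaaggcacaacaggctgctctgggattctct
The IL6 window is chr7:22726950-22727249 on the plus strand and holds an NF-kB motif.
IL6: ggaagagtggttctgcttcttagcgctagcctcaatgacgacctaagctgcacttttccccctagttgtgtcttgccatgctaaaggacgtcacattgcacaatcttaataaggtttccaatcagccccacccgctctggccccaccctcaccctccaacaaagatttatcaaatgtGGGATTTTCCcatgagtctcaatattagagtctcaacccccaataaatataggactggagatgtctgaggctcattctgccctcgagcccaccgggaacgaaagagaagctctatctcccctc
The IL11 window is chr19:55370414-55370713 on the minus strand and holds an AP-1 motif.
IL11: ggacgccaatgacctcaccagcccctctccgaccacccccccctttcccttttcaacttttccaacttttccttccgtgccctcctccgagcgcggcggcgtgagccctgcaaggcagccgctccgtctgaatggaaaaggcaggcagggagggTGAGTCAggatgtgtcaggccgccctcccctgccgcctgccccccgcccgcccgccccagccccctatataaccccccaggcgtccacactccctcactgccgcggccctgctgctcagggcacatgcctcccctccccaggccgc
The OSMR window is chr5:38845762-38846061 on the plus strand, and its AP-1 motif lies just downstream of the start site.
OSMR: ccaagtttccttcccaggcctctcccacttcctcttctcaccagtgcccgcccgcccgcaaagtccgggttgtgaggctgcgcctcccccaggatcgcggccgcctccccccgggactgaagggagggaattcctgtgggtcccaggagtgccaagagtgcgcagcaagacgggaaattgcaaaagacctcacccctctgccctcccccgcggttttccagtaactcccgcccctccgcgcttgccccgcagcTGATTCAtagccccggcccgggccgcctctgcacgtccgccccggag

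Promoter windows were at hand for 8 of the 10 members, 14 windows in all counting alternative start sites. LIF and CSF1 are named only. Both strands were searched, and matches could overlap. An AP-1 motif was found in 4 of the 14 windows, of 3 members (IL1A, IL11 and OSMR), and 7.71% of all 35116 windows of this length held one. Windows of 1 gene can overlap and hold the same match, as those of IL1A do. An NF-kB motif was found in 2 of the 14 windows (IL6 and IL6ST), against 11.3% of all windows. STAT motifs were found in 4 of the 14 (IL1B, IL1R1 and LIFR), against 7.66% of all windows. No member window held a cAMP response element (TGACGTCA), which 1.85% of all windows held. A TEAD motif (GGAATG) was found in 2 of the 14 (IL1R1 and LIFR), against 14% of all windows. The letters TATAAA, on either strand, were found in 3 of the 14 (IL1A, IL1R1 and LIFR), against 11.5% of all windows, and all of these matches lay more than 100 bases before the start site. These are letter matches in a short window and say nothing of occupancy.

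Across the experiments, the family genes mostly fell with siRNA and mostly rose with CRISPRi. With siRNA, 8 members had enough reads to test, of which 6 were called lower, 1 was called higher and 1 was not called at an adjusted p under 0.05. Among all 21018 genes tested there, 6.98% were called lower, 2.55% higher and 9.53% either way. In SK-N-SH CRISPRi, 6 of 7 tested members were called higher and 0 lower, in an experiment where 27.7% of genes were called higher, 28% lower and 55.8% either way. No member was lower there at an unadjusted p under 0.05 either, nor by DESeq2. In SK-N-AS, 8 of 9 tested members were called higher and 0 lower, against 15.2% of genes called higher, 15.5% lower and 30.6% either way, and the unadjusted threshold and DESeq2 gave 0 lower too. The members' median log2 fold change was -0.49 with siRNA, 0.49 in SK-N-SH CRISPRi and 0.60 in SK-N-AS, beside medians over all genes of 0.01, -0.01 and 0.00.

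Each called member also had knockdown and control libraries that did not overlap: 7 with siRNA, 6 in SK-N-SH CRISPRi and 8 in SK-N-AS. Over all genes tested, groups did not overlap for 8.74%, 60.7% and 29.1% of genes. In SK-N-SH CRISPRi most genes were called, so a call there is close to the common case. IL1B with siRNA passed the read filter through its controls alone, since no knockdown library reached the 0.133 CPM needed. Of the other 7 members tested there 5 were called lower and 1 higher, with a median log2 fold change of -0.35. Each other tested member passed the filter in both groups of its experiment. These counts describe the tested members and not all 10.

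**Figure D1:**
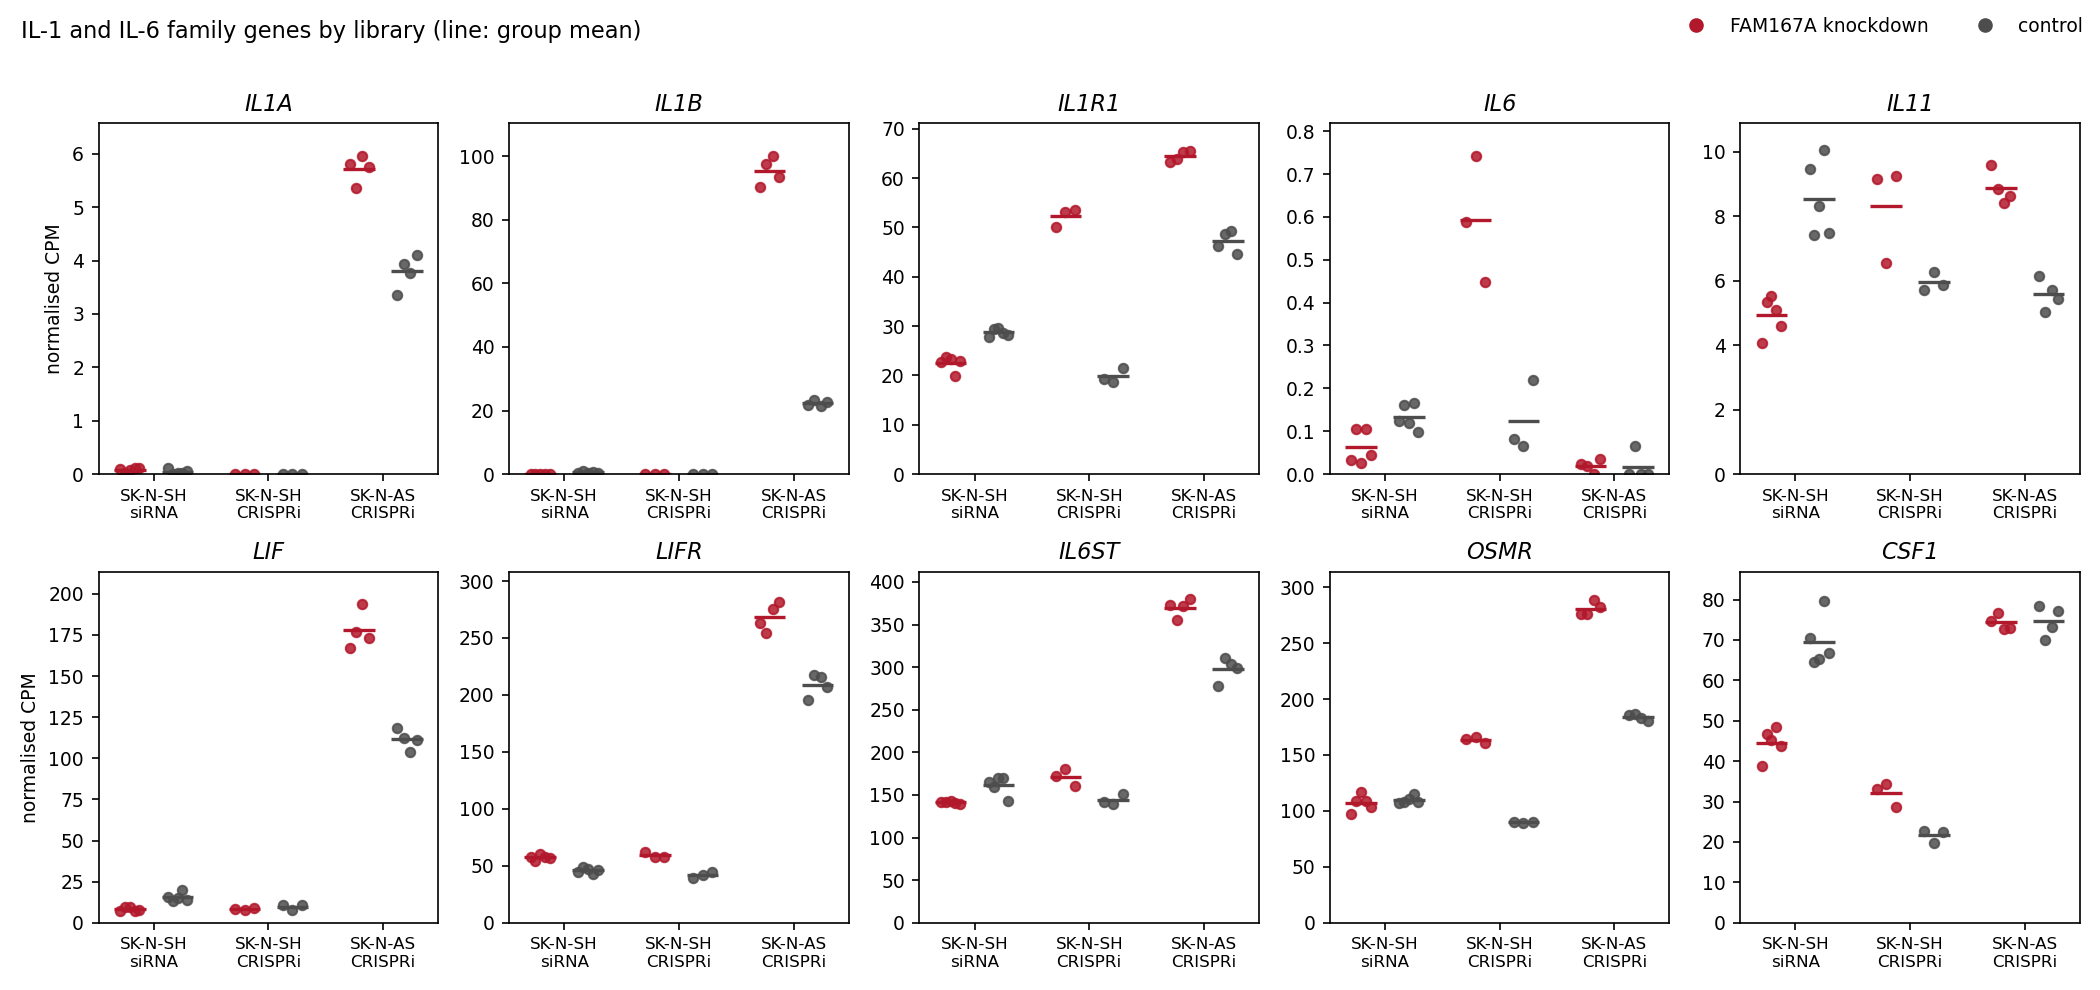
Normalised CPM (linear axes from 0) of the 10 genes in each library, by experiment, with FAM167A knockdown in red, control in grey and the group mean as a line. IL1B reaches 90.2 to 100.1 CPM in SK-N-AS knockdown libraries and 21.5 to 23.2 CPM in their controls, and LIFR is higher in knockdown in all 3 experiments.

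IL1B, which encodes IL-1 beta and lies at chr2:112829751-112836816 in the SK-N-AS table, had the largest rise among the members tested in SK-N-AS. In SK-N-AS it had 90.2, 97.6, 100.1 and 93.3 CPM in knockdown libraries, against 21.8, 23.2, 21.5 and 22.7 CPM in controls. Every knockdown library was about 4 times as high as every control. The log2 fold change was 2.10 ± 0.04 (± SE here and for all later log2 changes, 4.29-fold, adjusted p = 1.27e-29, edgeR's quasi-likelihood test with Benjamini-Hochberg adjustment), which ranked 40th of 2923 genes called higher. With siRNA in SK-N-SH the gene was near the detection limit, at 6, 10, 0, 8 and 6 reads in knockdown libraries against 20, 64, 25, 54 and 34 reads in controls. The knockdown libraries lay below all controls on few reads, 30 in sum against 197. The log2 fold change was -2.81 ± 0.49 (adjusted p = 0.000396), in a gene that entered the test only through its controls and for which DESeq2 gave no adjusted p. SK-N-SH CRISPRi libraries had 0 reads of IL1B in either group, which allows up to 0.0626 CPM over the knockdown libraries and 0.0628 CPM over the controls (3 reads in sum; counting error only).

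IL1A, which encodes IL-1 alpha and sits 45.2 kb from IL1B with no annotated gene between them, had lower levels. Its values in SK-N-AS were 5.80, 5.36, 5.96 and 5.76 CPM in knockdown against 3.36, 3.93, 3.77 and 4.11 CPM in controls. The groups did not overlap, and IL1A was higher by 0.60 ± 0.09 on the log2 scale (1.51-fold, adjusted p = 5.19e-06). With siRNA it had 34 reads over the knockdown libraries and 16 over the controls, too few for the test. Fitted without the read filter, its log2 fold change there was 0.91 ± 0.82 (adjusted p = 0.598), so no difference was detectable at this depth. SK-N-SH CRISPRi libraries had 0 reads of IL1A as well, with the same upper limits as for IL1B.

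IL1R1, the signalling receptor for both ligands, had the largest rise among the members tested in SK-N-SH CRISPRi. It had 50.2, 53.2 and 53.6 CPM in knockdown libraries, against 19.3, 18.7 and 21.5 CPM in controls, a log2 fold change of 1.38 ± 0.07 (2.61-fold, adjusted p = 7.36e-20). Its rise in SK-N-AS was smaller, at 63.3, 63.9, 65.2 and 65.4 CPM in knockdown against 46.3, 48.7, 49.3 and 44.7 CPM in controls (0.45 ± 0.04, adjusted p = 6.17e-12). With siRNA the order was the opposite. Knockdown libraries had 22.7, 23.8, 23.3, 19.98 and 23.0 CPM, against 27.9, 29.5, 29.6, 28.7 and 28.1 CPM in controls (-0.35 ± 0.05, adjusted p = 5.98e-05). No library of one group reached the other in any of the experiments.

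IL6, which encodes interleukin 6, was close to absent in both lines and passed the read filter in none of the experiments. In SK-N-SH CRISPRi it had 9, 11 and 7 reads in knockdown libraries against 1, 1 and 5 reads in controls. All knockdown libraries lay above the controls, and without the read filter the log2 fold change was 2.05 ± 0.65 (adjusted p = 0.00689). With siRNA it had 25 reads in sum in knockdown and 50 in controls, with overlapping groups (-1.08 ± 0.66 without the filter, adjusted p = 0.429). SK-N-AS libraries held 6 reads in knockdown and 2 in controls. IL6 overlaps STEAP1B and IL6-AS1 on the opposite strand, and STEAP1B fell with siRNA (-0.59 ± 0.14, adjusted p = 0.00614), and how strand was treated in counting is not recorded in the labels.

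IL11 encodes a gp130 cytokine known for its part in fibrosis. It fell with siRNA, at 4.06, 5.33, 5.53, 5.10 and 4.61 CPM in knockdown against 9.45, 7.40, 8.33, 10.1 and 7.48 CPM in controls (-0.80 ± 0.10, adjusted p = 5.9e-06). In SK-N-SH CRISPRi it had 9.16, 6.55 and 9.26 CPM in knockdown, against 5.71, 6.27 and 5.86 CPM in controls. The knockdown libraries were higher by 0.49 ± 0.14 (adjusted p = 0.00244), although the lowest of them lay only just above the highest control. In SK-N-AS it had 9.60, 8.86, 8.40 and 8.64 CPM in knockdown against 6.16, 5.03, 5.71 and 5.43 CPM in controls (0.66 ± 0.08, adjusted p = 3.14e-08).

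LIF, leukaemia inhibitory factor, was called lower with siRNA, not called in SK-N-SH CRISPRi and called higher in SK-N-AS. With siRNA it had 7.24, 9.33, 9.50, 7.39 and 8.05 CPM in knockdown, against 15.4, 13.2, 15.3, 20.02 and 13.7 CPM in controls (-0.90 ± 0.11; 1.87-fold lower, adjusted p = 2.38e-05). In SK-N-SH CRISPRi, knockdown libraries at 8.31, 7.63 and 9.01 CPM overlapped controls at 10.7, 7.92 and 10.5 CPM, and the log2 fold change of -0.23 ± 0.12 was not called (adjusted p = 0.108). That call rested on 1 library, since without the second control replicate the change was -0.35 (adjusted p = 0.0136). In SK-N-AS, where LIF was far more abundant, knockdown libraries had 167, 177, 194 and 173 CPM, against 118, 113, 104 and 111 CPM in controls (0.67 ± 0.04; 1.59-fold, adjusted p = 1.43e-13).

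LIFR, the receptor chain that binds LIF and pairs with gp130, was the sole member called higher in all 3 experiments. With siRNA it had 57.6, 53.9, 60.4, 57.6 and 57.1 CPM in knockdown, against 44.5, 49.3, 47.5, 42.9 and 46.5 CPM in controls (0.31 ± 0.05, adjusted p = 4.33e-05). In SK-N-SH CRISPRi it had 61.9, 58.1 and 58.1 CPM in knockdown, against 38.9, 42.0 and 44.9 CPM in controls (0.49 ± 0.06, adjusted p = 3.38e-09). The SK-N-AS values were 263, 254, 275 and 281 CPM in knockdown against 195, 218, 215 and 207 CPM in controls (0.36 ± 0.03, adjusted p = 5.05e-11). Among 13943 genes tested in all 3 experiments, 0.452% were called higher in every one. LIFR-AS1, which overlaps LIFR on the opposite strand, was called in none of the experiments, with 703 reads in knockdown and 701 in controls of the siRNA experiment.

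IL6ST, the shared gp130 chain, had narrow changes. With siRNA it had 142, 142, 143, 141 and 139.4 CPM in knockdown, against 166, 159.7, 170.4, 170.4 and 143 CPM in controls (-0.19 ± 0.04, adjusted p = 0.00477). The highest knockdown library, at 143.0 CPM, nearly met the lowest control, at 143.2 CPM. In SK-N-SH CRISPRi the knockdown libraries had 172, 181 and 160.2 CPM, against 142, 139.7 and 152 CPM in controls (0.24 ± 0.05, adjusted p = 2.26e-05). In SK-N-AS they had 373, 355, 372 and 380.2 CPM, against 278, 311, 304 and 299 CPM in controls (0.31 ± 0.03, adjusted p = 8.65e-11).

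OSMR, the oncostatin M receptor, lies 238 kb from LIFR on chromosome 5 with no protein-coding gene between them. It rose to 164, 166 and 161 CPM in SK-N-SH CRISPRi knockdown, against 90.3, 88.9 and 90.1 CPM in controls (0.87 ± 0.04; 1.82-fold, adjusted p = 7.57e-20). In SK-N-AS it had 276, 276, 289 and 282 CPM in knockdown against 186, 186, 183 and 180.0 CPM in controls (0.61 ± 0.03; 1.53-fold, adjusted p = 1.24e-19). Groups were far apart in both. With siRNA the groups overlapped, at 96.9, 109, 117, 109 and 103 CPM in knockdown against 107, 108, 110.2, 115 and 108 CPM in controls (-0.03 ± 0.04, adjusted p = 0.725). The 3′ end of OSMR overlaps RICTOR on the opposite strand. RICTOR rose in SK-N-SH CRISPRi (0.30 ± 0.07, adjusted p = 0.000613) and was not called in the other two experiments.

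CSF1, macrophage colony-stimulating factor, fell with siRNA and rose with CRISPRi in the same line. It had 38.8, 46.8, 45.2, 48.5 and 43.7 CPM in siRNA knockdown against 70.5, 64.5, 65.3, 79.7 and 66.9 CPM in controls (-0.64 ± 0.06; 1.56-fold lower, adjusted p = 4.93e-07). In SK-N-SH CRISPRi it had 33.2, 34.4 and 28.6 CPM in knockdown, against 22.8, 19.7 and 22.5 CPM in controls (0.56 ± 0.08; 1.48-fold, adjusted p = 1.17e-07). In SK-N-AS the groups overlapped, at 74.8, 76.7, 72.8 and 73.1 CPM in knockdown against 78.3, 70.1, 73.1 and 77.1 CPM in controls. The log2 fold change there was -0.01 ± 0.04 (adjusted p = 0.898), and its sign changed when single libraries were left out.

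**Figure D2:**
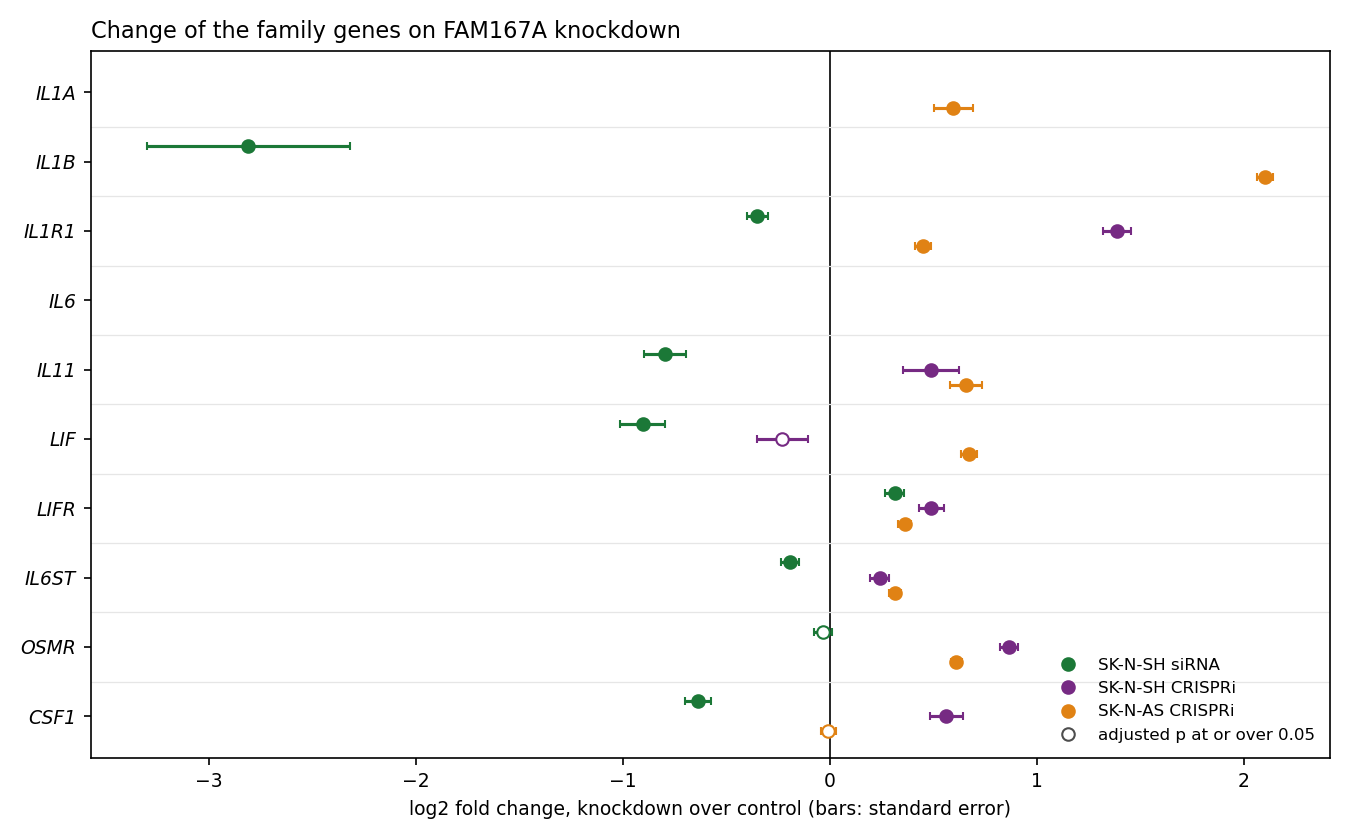
Log2 fold change of knockdown over control (x axis) with its standard error for each gene and experiment, filled where the adjusted p was under 0.05. The siRNA points of IL1B, IL1R1, IL11, LIF, IL6ST and CSF1 lie left of 0 and those of SK-N-AS for IL1B, IL1R1, IL11, LIF and IL6ST lie right of it, while LIFR lies right of 0 in all 3; IL6 and other genes with too few reads have no point.

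The responses to CRISPRi and siRNA in SK-N-SH were compared directly as an interaction, each taken against its own controls. The CRISPRi response was larger (more positive) for 7 of 8 members that could be tested. In that comparison 31.4% of 23287 genes differed in either direction, a share not split by direction. IL1R1 differed by 1.73 ± 0.09 on the log2 scale (adjusted p = 1.02e-16), CSF1 by 1.19 ± 0.12 (3.04e-09), IL11 by 1.27 ± 0.19 (1.47e-06) and OSMR by 0.89 ± 0.07 (1.24e-12). IL6ST differed by 0.43 ± 0.07 (1.88e-05). LIF differed by 0.66 ± 0.21 (adjusted p = 0.0155), a call lost without the third SK-N-SH CRISPRi knockdown replicate (adjusted p = 0.0551) or the second control replicate (0.0609). For IL6 the difference was 3.18 ± 0.90 (adjusted p = 0.0056), resting on few reads in both experiments. IL6 passed the read filter in neither experiment alone and was tested only because the filter was applied to both together. It had 27 reads in CRISPRi knockdown and 7 in controls, and 25 and 50 with siRNA, so it adds little to the 7 of 8. LIFR, at 0.17 ± 0.08, was not called (adjusted p = 0.121), although it was without the third CRISPRi control replicate (0.0429). IL1A and IL1B could not be tested for lack of reads. The method, the library preparation and the count table all changed together between these experiments and cannot be told apart.

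The CRISPRi response in SK-N-SH was compared with that in SK-N-AS in the same way, and 30.7% of 19862 genes differed in either direction. The SK-N-SH response was larger for IL1R1 (0.95 ± 0.08, adjusted p = 3.06e-14), CSF1 (0.58 ± 0.08, 2.2e-07) and OSMR (0.27 ± 0.05, 1.65e-05). It was smaller for LIF, by -0.89 ± 0.13 (adjusted p = 1.95e-06). No difference was called for IL11, at -0.16 ± 0.16 (adjusted p = 0.529), for IL6ST, at -0.06 ± 0.06 (0.491), for LIFR, at 0.14 ± 0.07 (0.124), or for IL6, at 1.07 ± 2.12 (0.793). LIFR passed without the first SK-N-AS control replicate (adjusted p = 0.0445) or the third SK-N-SH control replicate (0.0291). The line again changed together with the experiment.

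The 7 members tested in all 3 experiments can be sorted by their calls. IL1R1, IL11 and IL6ST were lower with siRNA and higher in both CRISPRi experiments, which held for 3.22% of the 13943 genes tested in all 3. LIF shared the fall with siRNA and the rise in SK-N-AS without a call in SK-N-SH CRISPRi. Whatever the SK-N-SH CRISPRi call, 4.08% of these genes were lower with siRNA and higher in SK-N-AS. OSMR rose in both CRISPRi experiments, as did 9.84% of these genes whatever their siRNA call. CSF1 fell with siRNA and passed the test for a rise in SK-N-SH CRISPRi alone.

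Levels between genes were compared per kb of gene length, as given with the siRNA table, and tables were normalised separately. In knockdown and control alike IL6ST and OSMR were among the most abundant members in each experiment. IL6ST had 15.2 ± 0.152 CPM per kb in siRNA knockdown and 17.4 ± 1.22 in controls (SD, n = 5 each), 18.4 ± 1.10 in SK-N-SH CRISPRi knockdown and 15.5 ± 0.686 in controls (n = 3 each), and 39.8 ± 1.14 in SK-N-AS knockdown and 32.1 ± 1.53 in controls (n = 4 each). In SK-N-SH siRNA controls its library range overlapped that of OSMR, at 15.3 ± 0.425 CPM per kb. CSF1 followed at 12.8 ± 1.15, and IL1R1, LIF, LIFR and IL11 formed a group from 4.06 down to 3.20 CPM per kb in which neighbours overlapped. IL1B, IL6 and IL1A came last, at 0.171, 0.0646 and 0.0205 CPM per kb.

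The order differed in the CRISPRi controls. In SK-N-SH it ran IL6ST, OSMR (12.5), CSF1 (4.00), LIFR (3.54), IL1R1 (2.80), LIF (2.45), IL11 (2.23) and IL6 (0.0595 CPM per kb), with CSF1 and LIFR, IL1R1 and LIF, and LIF and IL11 overlapping as neighbours. In SK-N-AS, LIF took the second place at 28.1 ± 1.499 CPM per kb, and LIFR reached 17.6 ± 0.846. IL1B stood sixth there at 7.20 ± 0.254 CPM per kb, its range overlapping that of IL1R1 at 6.67 ± 0.302. In SK-N-AS knockdown IL1B had 30.8 ± 1.42 CPM per kb, above LIFR at 22.6 ± 1.03. IL6 was last in SK-N-AS controls, at 0.00805 CPM per kb. A ligand and its receptor chain were thus both abundant in SK-N-AS for LIF, while IL6 mRNA was barely detected in any group.

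**Figure D3:**
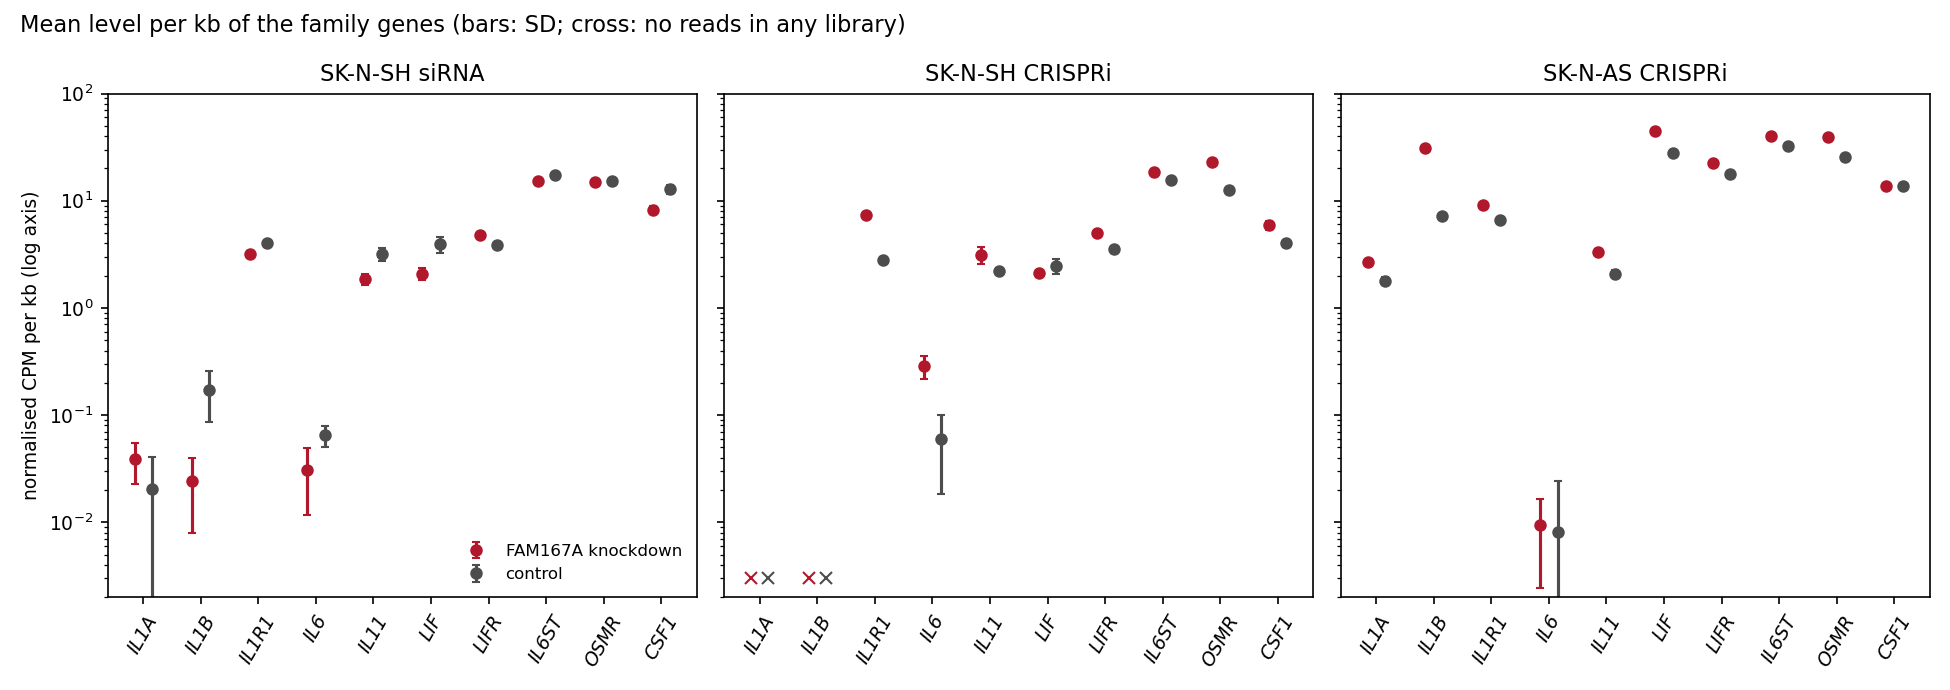
Mean normalised CPM per kb (log axis) of the 10 genes in FAM167A knockdown (red, left of each pair) and control (grey), with SD bars, 1 panel per experiment; crosses mark 0 reads. IL1B spans from no reads in SK-N-SH CRISPRi to 30.8 CPM per kb in SK-N-AS knockdown, whereas IL6ST stays between 15.2 and 39.8.

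Other genes of the same pathways, 127 in all without the members, were counted beside them. With siRNA 2 of 98 tested were called higher and 29 lower (31.6% called). In SK-N-SH CRISPRi 40 of 89 were higher and 17 lower (64.0%), and in SK-N-AS 52 of 103 were higher and 10 lower (60.2%). Over all genes tested, 2.55% were called higher and 6.98% lower with siRNA, 27.7% and 28% in SK-N-SH CRISPRi, and 15.2% and 15.5% in SK-N-AS. Either way, 55.8% were called in SK-N-SH CRISPRi, so the 64.0% there is near the common rate. The same shares over all genes stand beside every list and marker count below. Where a count of 0 is given below for a tested list, DESeq2 also gave 0. At an unadjusted p under 0.05 such a count was 3 for JAK, STAT and SOCS genes higher with siRNA, 1 for IL-6 family receptors higher with siRNA, 1 for IL-6 family ligands higher in SK-N-AS and 0 for the rest. These lists were chosen with earlier results of these data known and give no independent evidence of a direction.

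Among other IL-1 family ligands and antagonists (10 genes), few were expressed: 1, 1 and 3 were tested in siRNA, SK-N-SH CRISPRi and SK-N-AS. IL18BP was not called with siRNA and fell in SK-N-SH CRISPRi (-0.47 ± 0.10, edgeR adjusted p = 9.07e-05). Its level there was 11.6 ± 1.20 CPM in knockdown and 16.1 ± 0.746 CPM in controls (SD, n = 3 each). IL33, a nuclear alarmin cytokine, had 25.3 ± 1.65 CPM in SK-N-AS knockdown and 6.95 ± 0.489 CPM in controls (1.87 ± 0.06, SD, n = 4 each, adjusted p = 2.8e-22). IL1RN, the IL-1 receptor antagonist, rose there too, with 8.63 ± 0.879 CPM in knockdown and 4.66 ± 0.586 CPM in controls (0.87 ± 0.09, adjusted p = 9.12e-10). Of 9 other IL-1 family receptors, IL1RAP, the co-receptor of IL1R1, rose in SK-N-SH CRISPRi (26.8 ± 1.63 CPM in knockdown and 11.9 ± 0.194 CPM in controls; 1.17 ± 0.08, adjusted p = 9.28e-15) and in SK-N-AS (0.70 ± 0.16, adjusted p = 0.000695). The siRNA experiment had 1 receptor called lower of 4 tested, IL1RAPL1 (-0.62 ± 0.15, adjusted p = 0.00916), and SK-N-SH CRISPRi had SIGIRR, an inhibitory receptor, lower (-0.41 ± 0.12, adjusted p = 0.0046).

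Of 18 genes of IL-1 signalling and processing, 1 rose and 5 fell of 17 tested with siRNA, 8 rose and 1 fell of 15 in SK-N-SH CRISPRi, and 6 rose and 2 fell of 18 in SK-N-AS. IRAK2, a kinase adaptor of the receptor complex, changed in each: -1.40 ± 0.11 with siRNA (adjusted p = 2.12e-08), 1.23 ± 0.16 in SK-N-SH CRISPRi (3.04e-08) and 0.53 ± 0.05 in SK-N-AS (4.3e-10). IKBKB, a kinase that releases NF-kB, fell with siRNA (-0.42 ± 0.05, adjusted p = 1.75e-06) and rose in SK-N-SH CRISPRi (0.54 ± 0.06, 3.08e-10). CASP1, the protease that matures IL-1 beta, had 2.54 ± 0.231 CPM in SK-N-AS knockdown and 0.983 ± 0.291 CPM in controls (1.30 ± 0.17, SD, n = 4 each, adjusted p = 9.16e-08).

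Of 22 further IL-1 and NF-kB target genes, 0 rose and 14 fell of 19 tested with siRNA, 11 rose and 2 fell of 17 in SK-N-SH CRISPRi, and 16 rose and 0 fell of 19 in SK-N-AS. Their median log2 fold changes were -0.59, 0.58 and 0.59. NFKBIZ, an NF-kB cofactor, fell with siRNA (-0.68 ± 0.07, adjusted p = 9.04e-08) and rose in SK-N-SH CRISPRi (1.33 ± 0.07, 1.26e-18). MMP1, a collagenase, had 2.01 ± 0.257 CPM in siRNA knockdown and 10.7 ± 2.09 CPM in controls (-2.41 ± 0.13, SD, n = 5 each, adjusted p = 7.11e-11). In SK-N-AS, MMP1 had 14.2 ± 0.893 CPM in knockdown and 2.34 ± 0.399 CPM in controls (2.56 ± 0.09, SD, n = 4 each, adjusted p = 6.96e-22). SOD2, a mitochondrial superoxide dismutase, rose to 249 ± 10.8 CPM in SK-N-AS knockdown, against 107 ± 1.84 CPM in controls (adjusted p = 1.88e-26), and CXCL8, a neutrophil chemokine, rose by 1.57 ± 0.07 (4.06e-19). In SK-N-SH CRISPRi, CCL2, a monocyte chemokine (1.36 ± 0.08, adjusted p = 4.12e-17), and VCAM1, an adhesion molecule (2.02 ± 0.14, 1.28e-15), rose, while MMP3, a stromelysin, fell (-0.64 ± 0.04, 1.82e-15).

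Of 7 other IL-6 family ligands, 0 rose and 1 fell of 5 tested with siRNA, 2 rose and 1 fell of 4 in SK-N-SH CRISPRi, and 0 rose or fell of 5 in SK-N-AS. CTF1, cardiotrophin 1, had 16.7 ± 0.193 CPM in SK-N-SH CRISPRi knockdown and 8.81 ± 0.348 CPM in controls (0.93 ± 0.10, SD, n = 3 each, adjusted p = 1.96e-10), and CLCF1, another gp130 ligand, rose by 0.87 ± 0.12 (4.75e-08). EBI3, a subunit of IL-27, fell with siRNA (-0.60 ± 0.17, adjusted p = 0.0252) and in SK-N-SH CRISPRi (-1.94 ± 0.46, 0.000455), where it was scarce, at 0.238 CPM in knockdown and 0.953 CPM in controls. In the latter its knockdown mean is under the 0.634 CPM of the read filter and its control mean is above it. The 1 fall counted in SK-N-SH CRISPRi thus rests on a gene admitted through its controls. Of 5 other receptors of the family, IL6R, the IL-6 binding chain, had 8.500 ± 0.693 CPM in siRNA knockdown and 19.7 ± 1.74 CPM in controls (-1.22 ± 0.07, SD, n = 5 each, adjusted p = 3.87e-11), and in SK-N-AS it had 13.4 ± 0.439 CPM in knockdown and 8.47 ± 0.497 CPM in controls (0.67 ± 0.07, n = 4 each, 3.69e-10). CNTFR, the ciliary neurotrophic factor receptor, fell in both CRISPRi experiments. It had 15.5 ± 0.932 CPM in SK-N-SH CRISPRi knockdown and 67.0 ± 2.92 CPM in controls (-2.11 ± 0.07, SD, n = 3 each, adjusted p = 1.35e-25), and the change in SK-N-AS was -0.77 ± 0.04 (4.82e-16). The CNTFR change was thus opposite in sign to those of LIFR, IL6ST and OSMR in the same libraries.

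Of 21 JAK, STAT and SOCS genes, 0 rose and 2 fell with siRNA, 5 rose and 4 fell in SK-N-SH CRISPRi, and 8 rose and 4 fell in SK-N-AS, with medians of 0.00, 0.06 and 0.01. CISH, a feedback inhibitor of STAT signalling, fell in SK-N-SH CRISPRi (-1.24 ± 0.21, adjusted p = 4.01e-06) and SK-N-AS (-0.46 ± 0.09, 0.000141). SOCS1, another inhibitor, rose in SK-N-AS (0.55 ± 0.08, adjusted p = 7.87e-07), and SOCS2 fell in SK-N-SH CRISPRi (-0.81 ± 0.10, 3.2e-09). Of 20 STAT3 target genes, 16 were tested in each: 0 rose and 3 fell with siRNA, 9 rose and 4 fell in SK-N-SH CRISPRi, and 13 rose and 0 fell in SK-N-AS. BCL6, a transcriptional repressor, rose in SK-N-SH CRISPRi (1.06 ± 0.09, adjusted p = 4.81e-13) and CEBPD, an acute-phase transcription factor, in SK-N-AS (0.87 ± 0.05, 6.33e-15). ICAM1, an adhesion molecule held by this list and by the NF-kB list, fell with siRNA (-0.64 ± 0.15, adjusted p = 0.0236) and rose in SK-N-AS (0.60 ± 0.03, 7.95e-18).

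Of 7 other colony-stimulating factors and receptors, 2 were tested with siRNA, 0 in SK-N-SH CRISPRi and 4 in SK-N-AS. CSF2, GM-CSF, had 0.0376 ± 0.0301 CPM in siRNA knockdown and 0.569 ± 0.260 CPM in controls (-3.88 ± 0.49, SD, n = 5 each, adjusted p = 5.28e-06). The knockdown mean is under the 0.133 CPM of the read filter, and DESeq2 gave no adjusted p for this gene, so the call rests on few reads and on edgeR alone. In SK-N-AS it had 3.86 ± 0.277 CPM in knockdown and 1.94 ± 0.261 CPM in controls (0.99 ± 0.12, SD, n = 4 each, adjusted p = 5.63e-08). IL34, which shares the CSF1 receptor, rose in SK-N-AS (1.13 ± 0.18, adjusted p = 6.53e-06), as did the scarce CSF3, G-CSF (0.324 CPM in knockdown and 0.105 CPM in controls; 1.53 ± 0.45, 0.00838), whereas CSF1 itself did not pass the test there. The control mean of CSF3 is under the 0.148 CPM of the SK-N-AS read filter and its knockdown mean is above it. CSF3 thus entered that test through its knockdown libraries, and its call rests on few reads. Of 10 regulators of AU-rich mRNA decay, a route that clears many cytokine transcripts, 1 rose and 1 fell with siRNA, 4 rose and 2 fell in SK-N-SH CRISPRi, and 3 rose and 3 fell in SK-N-AS. ZFP36L1, one of its binding proteins, fell with siRNA (-0.34 ± 0.06, adjusted p = 0.000603) and rose in SK-N-SH CRISPRi (0.85 ± 0.05, 9.73e-17) and SK-N-AS (0.22 ± 0.03, 2.93e-06).

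**Figure D4:**
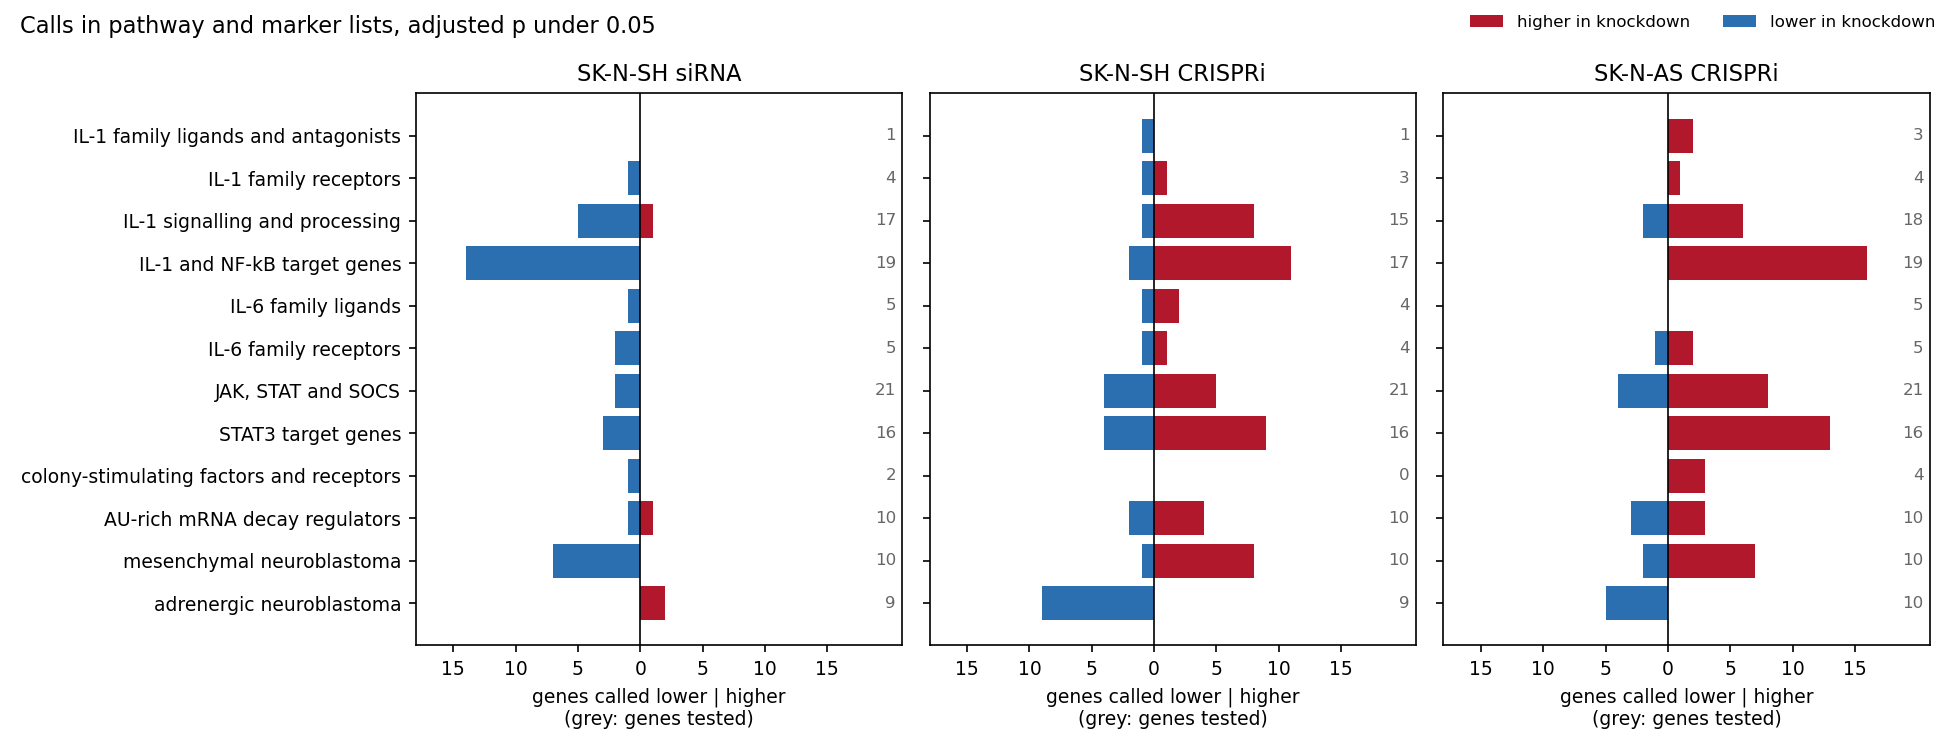
Number of genes called higher (red, right) and lower (blue, left) in knockdown for 10 pathway lists and 2 marker lists, by experiment, with the number tested in grey. Of the IL-1 and NF-kB target genes 14 are lower with siRNA, while 11 and 16 are higher in the CRISPRi experiments.

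Mesenchymal markers of neuroblastoma cell state mostly moved in the direction of these genes. Summed adrenergic markers went the other way in both CRISPRi experiments, while with siRNA their knockdown and control sums overlapped. The part of cell state in the results was not tested. Summed CPM of 10 mesenchymal markers was 1903 to 2228 in siRNA knockdown and 2542 to 2783 in controls, with 0 called higher and 7 lower. It was 11177 to 11825 in SK-N-SH CRISPRi knockdown and 5954 to 6874 in controls, with 8 higher and 1 lower, and 2935 to 3012 in SK-N-AS knockdown and 2644 to 2696 in controls, with 7 higher and 2 lower. Summed CPM of 10 adrenergic markers was 3589 to 4100 in siRNA knockdown and 3464 to 3895 in controls (2 higher, 0 lower). The adrenergic sum was 800 to 853 in SK-N-SH CRISPRi knockdown and 2166 to 2313 in controls (0 higher, 9 lower), and 1356 to 1404 in SK-N-AS knockdown and 1555 to 1617 in controls (0 higher, 5 lower). No marker of either list was without reads. In bulk RNA, more cells of a state and more RNA per cell cannot be told apart.

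Markers of other cell types were checked because macrophages, fibroblasts and endothelium also make these cytokines. Blood and macrophage markers summed to 0.928 to 1.53 CPM in siRNA knockdown and 1.20 to 1.63 CPM in controls, and to 1.98 to 2.75 CPM in SK-N-SH CRISPRi knockdown and 1.85 to 2.73 CPM in controls. In SK-N-AS the sum was 437 to 465 CPM in knockdown and 518 to 562 CPM in controls, carried by PTPRC (CD45), which fell (-0.27 ± 0.03, adjusted p = 5.9e-10). The other 9 blood markers summed to 1.17 to 1.53 CPM in knockdown and 0.715 to 1.13 CPM in controls there, with TYROBP and CD163 at 0 reads. Endothelial markers summed to at most 5.10 CPM in any library, and Schwann cell precursor and glial markers to at most 5.63 CPM. Fibroblast and smooth muscle markers, all 10 of which had reads in SK-N-SH, summed to 11795 to 12429 CPM in SK-N-SH CRISPRi knockdown and 5401 to 6258 CPM in controls, 8 of 9 tested being higher and 1 lower. With siRNA they summed to 2583 to 3661 CPM in knockdown and 2679 to 2794 CPM in controls (4 higher, 1 lower), and in SK-N-AS to 2128 to 2188 CPM in knockdown and 2200.0 to 2245 CPM in controls (4 higher, 4 lower). COL1A1 was the largest term of every SK-N-SH sum and of the SK-N-AS control sum. In SK-N-AS it had 628 ± 24.2 CPM in knockdown and 900 ± 43.9 CPM in controls (SD, n = 4 each). The lower sum in SK-N-AS knockdown therefore need not hold for the other markers. Epithelial markers summed to 34.3 to 40.8 CPM in siRNA knockdown and 32.0 to 36.9 CPM in controls, to 159.7 to 168 CPM in SK-N-SH CRISPRi knockdown and 82.2 to 89.2 CPM in controls, and to 137 to 149 CPM in SK-N-AS knockdown and 142 to 150.1 CPM in controls, carried by KRT18.

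Across all 24 libraries and 13943 genes, the profile most like each member was found by Pearson correlation of log2 CPM, after subtracting the mean of each experiment's own controls. Differences in level between lines and methods are thereby removed from the controls, and r reflects the responses to knockdown and the spread between libraries. The libraries of a group share its response, so they are not independent points. IL1R1 was most like FRMD6 (r = 0.990), OPTN and AKAP6, and OSMR was most like NUAK1 (r = 0.990), ROBO1 and LTBP2. LIF was most like FOSL1 (r = 0.975), an AP-1 subunit and mesenchymal marker, then ICAM1 and SLC39A14. IL11 was most like SERTAD1 (r = 0.964), RAB27B and NRP1, and CSF1 most like PLXNA2 (r = 0.981), ATF6B and ITPRIP. IL6ST was most like BPNT2 (r = 0.971), UHMK1 and RIPK2, and LIFR most like ETS2 (r = 0.934), AP1G1 and FHIP2A. Among members, IL1R1 and OSMR were most alike (r = 0.912), followed by IL11 and IL6ST (r = 0.874) and IL11 and LIF (r = 0.866). For LIF and its receptor chain LIFR, r was -0.15 on this centred scale, although both were higher in level in SK-N-AS.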

How the data were processed

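Poly(A) RNA of 24 libraries was measured by RNA-seq. The authors deposited 3 tables of raw read counts per gene, 1 per experiment. The submitters' processing notes name featureCounts 1.5.1, STAR 2.6.1d and the build GRCh38 among the tools. The tool behind each table, the annotation release and the strand setting: not given in the sources used here. Of count values from 1 to 20, 60.6% were even with siRNA, 39.0% in SK-N-SH CRISPRi and 89.6% in SK-N-AS, so both reads of a pair may have been counted in part of the tables. Read numbers there can exceed the number of fragments.

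Genes were matched by Ensembl identifier. Each experiment was tested alone with edgeR 4.0.16 (R 4.3.3): TMM scaling, filterByExpr (minimum count 10, total 15), the quasi-likelihood test and Benjamini-Hochberg adjustment over all genes tested, with a call at 0.05. Normalised CPM is the count divided by the TMM-scaled library total. Responses were compared between experiments by interaction terms over shared identifiers. The knockdown-against-control test of each experiment was also run on simulated counts, and the interaction test was not. Gene overlaps come from GENCODE release 29, and promoter windows from RefSeq. Alternatives were DESeq2 1.42.0, RLE scaling, other filters, a replicate block, halved counts for siRNA and SK-N-AS (chosen after seeing the data) and leaving out libraries.

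All members were named. Of each list, up to 4 called genes with the smallest adjusted p per experiment could be named. The members and the lists were chosen with earlier results of these data known. Profiles were compared on log2 CPM centred on the control mean of each experiment. Read numbers limit the precision of IL1A, IL1B and IL6 in SK-N-SH and of IL6 in SK-N-AS.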

Additional observations from a re-analysis of the deposited data

Results flagged for a closer look

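Among 40 groups checked with a Dixon outlier test (gap to the nearest library over the range), 2 had a flagged library. IL1R1 in siRNA knockdown replicate 4 was 19.98 CPM, below the other 4 knockdown libraries. Its statistic of 0.7106 barely passed the critical value of 0.71. IL6 in SK-N-AS control replicate 2 was 0.0666 CPM, where the other 3 controls had no read. That value is 2 reads, and with 3 values at 0 any read sets a library apart, so it shows nothing beyond the detection limit. Chance flags about 1 in 20 groups, so 2 flags among 40 groups are no more than chance would give.

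The SK-N-SH response differed between CRISPRi and siRNA, by an edgeR interaction test, for IL1R1 (log2 difference 1.73), IL6 (3.18), IL11 (1.27), LIF (0.66), IL6ST (0.43), OSMR (0.89) and CSF1 (1.19). Of these genes, IL6 passed the read filter in neither experiment alone. Between SK-N-SH and SK-N-AS CRISPRi the response differed for IL1R1 (0.95), LIF (-0.89), OSMR (0.27) and CSF1 (0.58). The SK-N-AS CRISPRi response less the SK-N-SH siRNA response was 4.91 for IL1B, 0.80 for IL1R1, 1.45 for IL11, 1.58 for LIF and 0.51 for IL6ST. The IL1B value rests on few siRNA reads, 30 in knockdown against 197 in controls. With siRNA that gene passed the read filter through its controls alone. In these 5 genes every SK-N-AS knockdown library lay above its controls and every siRNA knockdown library below its controls. That difference was not tested, and line, method and table change together in it.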

How the results depend on the processing

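Of 234 counts of called genes or members recomputed under the alternatives, 233 stayed within 1.5 times the reported count. The exception was the number of members called lower in SK-N-SH CRISPRi, which ranged from 0 to 1 when single libraries were left out (LIF, without control replicate 2). Of 624 recomputed member values, 613 kept their direction and their side of the threshold. The SK-N-AS change of CSF1, not called, ranged from -0.036 to 0.018 on the log2 scale when single libraries were left out, and the SK-N-SH less SK-N-AS difference of IL6 from -0.99 to 1.98; its sign turned without SK-N-AS control replicate 2, 1 of 8 libraries there and the sole control with reads. Halved counts changed no call of a member for siRNA or SK-N-AS. They were not run for SK-N-SH CRISPRi or the differences between experiments. Leaving out siRNA knockdown library 4 with control library 5 changed no call of a member in the siRNA comparison. In that experiment, knockdown libraries 3 and 4 stood apart from 1, 2 and 5. The chi-square per gene of their counts was 7.85 between 3 and 4 and 11.0 to 18.9 among 1, 2 and 5. Between these sets it was 27.3 to 44.6. Leaving out library 4 does not remove that split, and its source was not tested. DESeq2 gave no adjusted p for IL1B with siRNA because of its low mean count. Same-numbered replicates did not deviate together over all genes tested (correlations -0.136 to 0.0477). Such a correlation cannot tell whether they shared a culture or a processing day, and the labels do not say. With the replicate block, 1532 genes were called with siRNA, 8460 in SK-N-SH CRISPRi and 5894 in SK-N-AS, and member calls did not change. A mean of 1 CPM as filter leaves no siRNA value for IL1B. IL1A, IL1B and IL6 in SK-N-SH rest on few reads.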
